A study of Mus musculus with 6 samples.

Results

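A set of 10 genes that mark T cells and the intraepithelial lymphocytes of the gut were followed in colon RNA from mouse offspring whose dams had, or had not, received dextran sulfate sodium (DSS) in pregnancy. They were chosen by symbol in the deposited table, and 9 of the 10 have a row among its 20594 genes: the CD3 chains Cd3d, Cd3e and Cd3g, the T cell receptor constant segment Trbc2, the coreceptors Cd4 and Cd8a, the integrin chain Itgae, and the granzymes Gzma and Gzmb. Cd8b1, which encodes the beta chain of the CD8 coreceptor, is not analysed here. The maternal DSS group has 3 libraries, from C57BL/6J offspring of dams given 1.5% DSS from embryonic day 13 to 19, and the control group has 3 libraries, from C57BL/6J offspring of dams given 0% DSS over the same days. The series design text gives the exposure as 5 days, while the sample labels give the span above. All offspring were 3 weeks old and the tissue was colon. DSS is a sulfated polysaccharide that injures the colon lining and induces colitis. Each library's title names 3 offspring, so a library may be a pool of 3 animals. The labels give no dam, litter, sex or batch, so p-values measure only the spread between these libraries, which may be technical, and an effect of a shared dam cannot be told apart from that of DSS.

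T cells recognise antigen through a receptor made of variable chains, closed by a constant segment such as that of Trbc2, and held in a complex with the CD3 gamma, delta and epsilon chains, which pass the signal into the cell. CD4 and CD8 bind the molecules that present antigen and divide T cells into helper and cytotoxic kinds. Intraepithelial lymphocytes are T cells lodged between the epithelial cells of the gut. Many carry the integrin alpha E chain, CD103, which is encoded by Itgae and binds E-cadherin, and many store granzymes, the serine proteases that are released to kill infected or damaged cells. In mice these cells are sparse at birth and accumulate around weaning, with the gut microbiota and food as known stimuli.

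The promoters of 4 members are shown because the results below turn on how these genes vary from library to library: the CD3 genes are neighbours on chromosome 9, and Gzma varied more than any other member. Promoter windows were found for 6 of the 10 genes in RefSeq, on the build GRCm38.p6 (mm10). Each window holds 250 bases before the start of transcription and 50 from it on, written 5′ to 3′ on the strand of the gene. The starts used for Cd3d (44981786) and Cd3e (45009611) lie inside the gene coordinates given further below, and distances between starts rest on them. Capitals mark matches, on either strand, to CACCTG or CAGCTG (E-boxes, bound by basic helix-loop-helix factors), TGTGGT (bound by RUNX factors) and AGGAAG (bound by ETS factors). A match is a run of letters and not a shown binding site.
Cd3g, chr9:44980382-44980681, minus strand: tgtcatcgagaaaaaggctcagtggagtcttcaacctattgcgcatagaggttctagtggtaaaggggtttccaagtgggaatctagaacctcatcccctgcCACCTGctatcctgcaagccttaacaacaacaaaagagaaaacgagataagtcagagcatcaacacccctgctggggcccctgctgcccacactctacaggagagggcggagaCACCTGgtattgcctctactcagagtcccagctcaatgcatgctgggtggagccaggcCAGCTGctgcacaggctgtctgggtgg
Cd3d, chr9:44981536-44981835, plus strand: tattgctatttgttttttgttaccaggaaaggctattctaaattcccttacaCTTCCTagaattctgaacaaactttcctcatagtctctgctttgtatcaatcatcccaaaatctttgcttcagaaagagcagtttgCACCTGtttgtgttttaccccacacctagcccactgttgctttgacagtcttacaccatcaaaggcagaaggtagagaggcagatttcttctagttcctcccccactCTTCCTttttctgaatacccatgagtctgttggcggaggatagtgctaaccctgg
Cd3e, chr9:45009562-45009861, minus strand: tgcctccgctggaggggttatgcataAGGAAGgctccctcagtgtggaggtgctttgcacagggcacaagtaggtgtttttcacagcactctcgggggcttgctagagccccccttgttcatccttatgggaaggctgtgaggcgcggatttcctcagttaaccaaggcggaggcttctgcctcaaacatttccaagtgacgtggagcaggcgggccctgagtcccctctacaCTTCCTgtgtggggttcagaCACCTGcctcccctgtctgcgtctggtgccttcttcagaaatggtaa
Gzma, chr13:113100932-113101231, minus strand: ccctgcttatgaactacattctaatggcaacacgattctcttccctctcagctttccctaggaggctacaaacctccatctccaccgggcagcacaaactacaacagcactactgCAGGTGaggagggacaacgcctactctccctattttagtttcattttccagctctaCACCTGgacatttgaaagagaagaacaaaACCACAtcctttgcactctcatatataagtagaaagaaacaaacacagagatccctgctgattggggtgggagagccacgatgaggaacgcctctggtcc

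Cd3g and Cd3d are read in opposite directions from starts 1355 bases apart, and the start of Cd3e lies 27825 bases beyond that of Cd3d. All 4 windows hold CACCTG, with 2 matches in Cd3g, 1 in Cd3d, 1 in Cd3e and 2 in Gzma, while 20.2% of the 32851 RefSeq promoter windows hold at least 1. The windows of the other members were not searched, so these matches give no share for the gene set. AGGAAG has 2 matches in Cd3d and 2 in Cd3e, and none in the windows of Cd3g and Gzma, against a share of 35.4% of all windows. TGTGGT has 1 match in Gzma (16.8% of all windows), and CAGCTG has 1 match in Cd3g (16.3% of all windows). None of the 4 motifs overlaps another in these windows.

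All values are FPKM, fragments per length of transcript and per total of fragments, a measure that corrects for transcript length so that genes can be set beside each other. T cell transcripts were scarce in these libraries. In FPKM averaged over the 6 libraries, Trbc2 stood highest at 2.40, followed by Cd4 at 1.24, Cd3g at 1.07, Gzma at 0.850, Itgae at 0.691, Cd3d at 0.404, Gzmb at 0.387, Cd3e at 0.364 and Cd8a at 0.239. For comparison, the median of all 20594 rows was 3.07 FPKM, and 45.9% of rows had a lower mean than Trbc2. In that order the lowest library of Trbc2 (1.63 FPKM) lay above the highest of Cd4 (1.52 FPKM), while each later gene overlapped the one before it over the 6 libraries. Levels this low rest on few fragments, and the depth of the libraries is unknown.

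Colon epithelium genes were abundant in every library. The colon epithelium list (Car1, Slc26a3, Krt20, Muc2 and 4 others) summed to 7410 to 9189 FPKM in maternal DSS and 6343 to 7628 FPKM in control libraries. Small intestinal and Paneth cell genes, taken as a list, summed to 33.1, 165 and 165 FPKM in maternal DSS libraries 1 to 3, against 29.6 to 49.3 FPKM in controls, so 2 of the maternal DSS libraries stood apart from the other 4. The plasma cell list, led by Igkc and Igha, stood apart in the same 2 libraries (260 FPKM in maternal DSS 1, 876 in maternal DSS 2 and 1174 in maternal DSS 3, against 215 to 263 FPKM in controls). Mast cell transcripts were highest in maternal DSS 1 (35.1 FPKM against 14.8 and 17.97 in the other maternal DSS libraries and 19.7 to 21.0 in controls).

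The mean level of all 9 genes was higher in maternal DSS than in control offspring, by 1.21 to 1.88 times, but no gene passed the test and the groups overlapped in every one. Mean FPKM was higher in maternal DSS in 42.5% of all rows, and in 41.4% of the 5736 rows whose mean lies within the range of these genes. The higher values lay in maternal DSS 2 and maternal DSS 3. These were the 2 highest libraries for 7 of the 9 genes, against 10.6% of all rows and 6.52% of rows in the same range of levels. Maternal DSS 1 lay within the range of the controls for all 9 genes, as it did in 47.8% of all rows and 46% of rows in the same range of levels. Relative to the control mean, the median over the 9 genes was 0.997 in maternal DSS 1, 1.56 in maternal DSS 2 and 1.50 in maternal DSS 3, against 0.868, 0.851 and 1.25 in controls 1, 2 and 3. In tissue RNA, more cells of a type and more RNA per cell cannot be told apart.

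**Figure D1:**
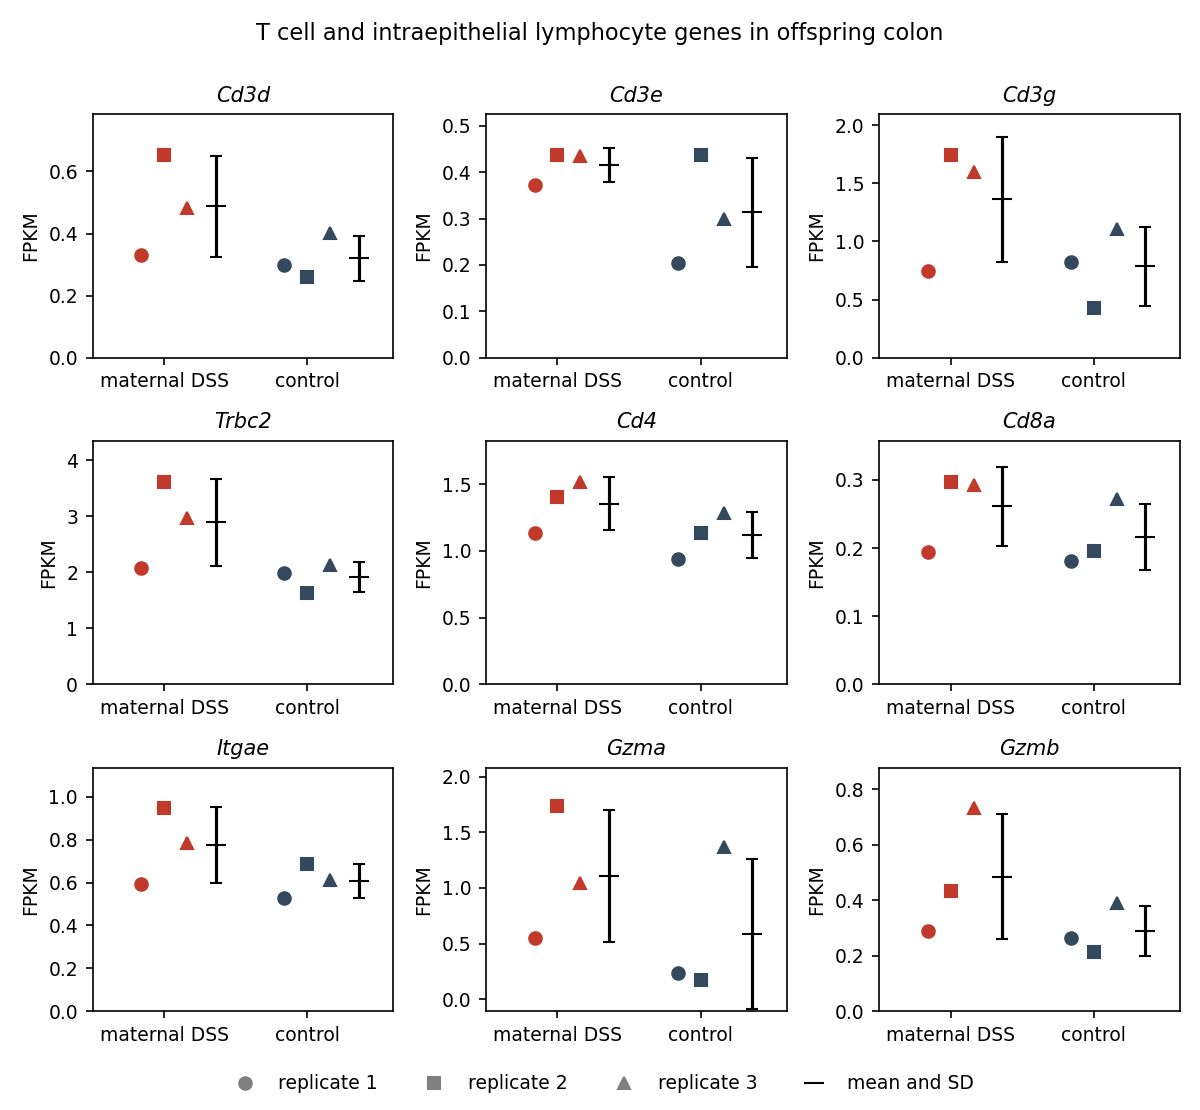
FPKM of the 9 genes in each library (vertical axis, own scale in each panel), with maternal DSS libraries in red on the left and control libraries in dark blue on the right of each panel, marker shape giving the replicate number and the black bar the mean and SD of 3 libraries. Maternal DSS 1 (red circle) sits within the range of the controls in all 9 panels, and maternal DSS 2 and 3 are the 2 highest libraries in 7 of them.

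Among the receptor genes, Trbc2 (chromosome 6, 41546730 to 41548181), which encodes a constant segment of the T cell receptor beta chain, had 2.08, 3.62 and 2.97 FPKM in maternal DSS libraries 1 to 3, against 1.98, 1.63 and 2.14 FPKM in controls 1, 2 and 3. Maternal DSS 2 and 3 lay above all controls and maternal DSS 1 below control 3. The mean was 2.89 ± 0.772 FPKM in maternal DSS and 1.92 ± 0.260 FPKM in control libraries (SD, n = 3 each), a log2 fold change of 0.40 (SE 0.16, 95% interval 0.02 to 0.78) with an adjusted p = 0.62 over 13594 genes in limma. Its unadjusted p of 0.0396 fell under 0.05, as did that of 7.83% of all genes tested, and 2.42% of genes were higher in maternal DSS at that threshold. The neighbouring segment Trbc1 is nearly identical in sequence, so how reads were split between them is uncertain.

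Cd3g (chromosome 9, 44969572 to 44980431), the gamma chain of CD3, had 0.748, 1.75 and 1.597 FPKM in maternal DSS libraries 1 to 3, against 0.821, 0.431 and 1.11 FPKM in controls. It had the widest range of the CD3 genes, 4.05-fold between its lowest and highest library. Its log2 fold change was 0.39 (SE 0.21, adjusted p = 0.62 in limma). Cd3d (chromosome 9, 44981769 to 44987052), the delta chain, had 0.329, 0.654 and 0.481 FPKM in maternal DSS libraries, against 0.298, 0.261 and 0.401 FPKM in controls. Cd3g and Cd3d shared their 3 highest libraries in the same order, maternal DSS 2, maternal DSS 3 and control 3, and their lowest, control 2. This was not particular to the neighbouring genes. Trbc2, on chromosome 6, had the same 3 highest libraries and the same lowest, and Cd8a, also on chromosome 6, the same 3 highest. Cd3e (chromosome 9, 44998735 to 45009663), the epsilon chain, had 0.373, 0.438 and 0.435 FPKM in maternal DSS libraries, against 0.203, 0.437 and 0.300 FPKM in controls. Control 2, which was lowest for Cd3g and Cd3d, was thus level with the highest libraries for Cd3e. The 3 chains are parts of one complex, and at these levels their order over libraries was not the same.

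The coreceptors differed least. Cd4 (chromosome 6, 124864693 to 124888247), which marks helper T cells and in mice also some innate lymphoid cells, had 1.13, 1.40 and 1.52 FPKM in maternal DSS libraries 1 to 3, against 0.940, 1.14 and 1.29 FPKM in controls. Its highest library was 1.62-fold above its lowest, the narrowest range of the 9 genes. The log2 fold change was 0.15 (SE 0.11, 95% interval -0.12 to 0.41, adjusted p = 0.67 in limma). Cd8a (chromosome 6, 71373427 to 71379171), the alpha chain of CD8, which intraepithelial lymphocytes carry also without the beta chain, had 0.195, 0.298 and 0.292 FPKM in maternal DSS libraries, against 0.181, 0.196 and 0.272 FPKM in controls. The ratio of means was 1.21 for both coreceptors.

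Itgae (chromosome 11, 73090505 to 73147449), which holds lymphocytes in the epithelium and is also carried by some dendritic cells, had 0.592, 0.946 and 0.784 FPKM in maternal DSS libraries 1 to 3, against 0.528, 0.685 and 0.611 FPKM in controls. Maternal DSS 2 and 3 were above all controls, and maternal DSS 1 was below 2 of them. The mean was 0.774 ± 0.177 FPKM in maternal DSS and 0.608 ± 0.0787 FPKM in control libraries (SD, n = 3 each).

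Of the granzymes, Gzma had the widest range of all 9 genes and Gzmb a narrower one than Cd3g. Gzma (chromosome 13, 113093824 to 113100981), a tryptase of cytotoxic T and natural killer cells, had 0.549, 1.73 and 1.05 FPKM in maternal DSS libraries 1 to 3, against 0.234, 0.171 and 1.37 FPKM in controls. Control 3 was the second highest of the 6 libraries, and the whole range was 10.1-fold. The mean was 1.11 ± 0.594 FPKM in maternal DSS and 0.591 ± 0.673 FPKM in control libraries (SD, n = 3 each), a log2 fold change of 0.45 (SE 0.31, 95% interval -0.28 to 1.18, adjusted p = 0.65 in limma). The ratio of means, 1.88, became 5.47 without control 3 and between 1.35 and 2.35 without any other single library. Gzmb (chromosome 14, 56258836 to 56262334), which starts cell death in target cells, had 0.289, 0.435 and 0.731 FPKM in maternal DSS libraries, against 0.265, 0.213 and 0.390 FPKM in controls. Maternal DSS 3 was its highest library and maternal DSS 2 the highest of Gzma. Its highest library was 3.43-fold above its lowest.

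Only Trbc2, Cd4, Cd3g and Gzma reached 1 FPKM in at least 3 libraries and so entered the test with the filter. Among them 0 of 4 had an adjusted p under 0.05 in limma, as did 0% of all 13594 genes, and 1 of 4 had an unadjusted p under 0.05. Without a filter all 9 could be tested among 20594 genes. Adjusted p then ran from 0.69 for Trbc2 to 0.77 for Cd8a, 0 of 9 passed (0% of all genes), and 0 of 9 had an unadjusted p under 0.05, against 7.16% of all genes (2.59% higher in maternal DSS). The groups did not overlap in 0 of the 9 genes, against 12.9% of all genes (4.7% with maternal DSS higher). With a pseudocount of 0.1 in place of 1, which shrinks low genes less, log2 fold changes ran from 0.19 for Cd8a to 1.12 for Gzma, with 95% intervals of -0.28 to 0.66 and of -0.53 to 2.77.

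**Figure D2:**
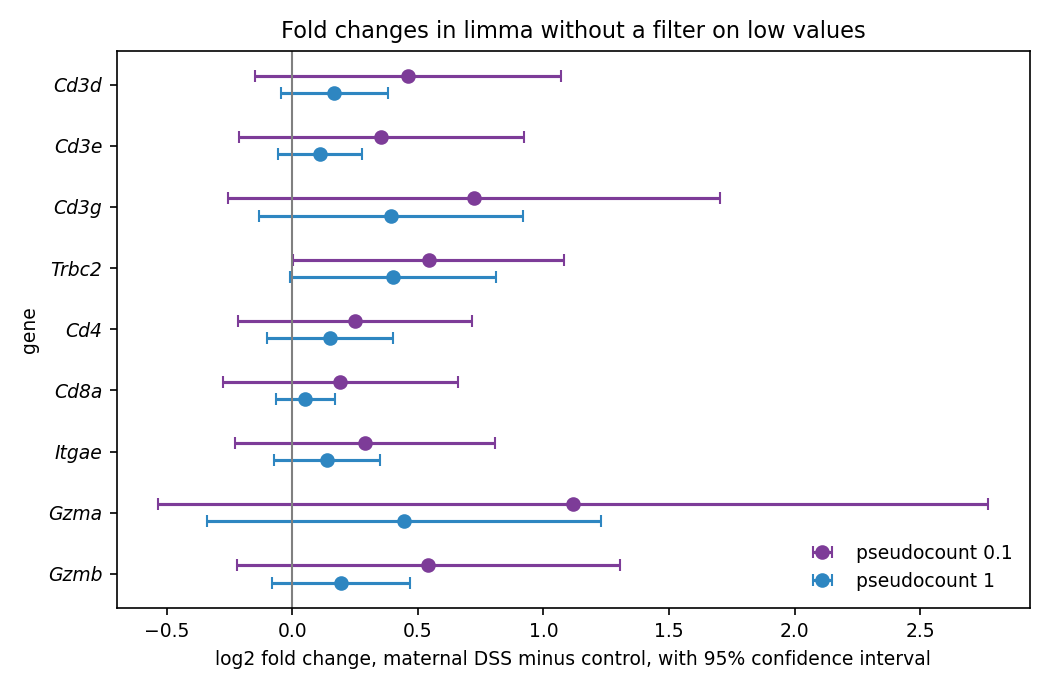
Log2 fold change of maternal DSS minus control (horizontal axis) with its 95% confidence interval for the 9 genes (rows), from limma without a filter on low values, with a pseudocount of 0.1 in purple and of 1 in blue. All point estimates are above 0, and all intervals reach 0 or below except that of Trbc2 with a pseudocount of 0.1, whose unadjusted p was 0.0486 and adjusted p 0.70.

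The calls of these genes moved with array weights alone, while their unadjusted p moved with single libraries. Without maternal DSS 1, 5 of 9 genes were higher with an unadjusted p under 0.05 (6.15% of all genes), with adjusted p from 0.22 to 0.38 in limma without a filter. Limma with array weights weighted maternal DSS 2 by 5.47 against 0.249 for maternal DSS 1, and called Cd3g, Trbc2 and Gzma higher (adjusted p of at most 0.0115) along with 4933 of the 13594 genes.

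Ratios between genes within a library are not moved by the library's scaling, and none separated the groups. Cd8a stood to Cd4 as 0.172, 0.212 and 0.192 in maternal DSS 1, 2 and 3, and as 0.192, 0.172 and 0.211 in controls 1, 2 and 3. The difference of the log2 ratios was 0.0011, with SDs of 0.15 in each group (two-sided exact permutation p = 0.9, where the smallest possible is 0.1). The log2 ratio of Itgae to Cd3e averaged 0.88 ± 0.22 in maternal DSS and 1.02 ± 0.36 in control libraries (SD, n = 3 each, exact permutation p = 0.7). That of Gzma to Cd3e averaged 1.27 ± 0.71 in maternal DSS and 0.35 ± 1.78 in control libraries (exact permutation p = 0.5). That of Gzmb to Cd3e averaged 0.12 ± 0.57 in maternal DSS and -0.09 ± 0.82 in control libraries (exact permutation p = 0.8). Gzma stood above Gzmb in all 3 maternal DSS libraries, 1.90, 3.98 and 1.43-fold, and was 0.882, 0.805 and 3.51 times Gzmb in controls 1, 2 and 3 (exact permutation p = 0.5). Measured against all leukocytes by Ptprc, which encodes CD45, Cd3e stood at 0.136, 0.0998 and 0.116 in maternal DSS and at 0.0606, 0.123 and 0.0861 in control libraries (exact permutation p = 0.3). Against the B cell gene Cd79a it stood at 0.376, 0.184 and 0.230 in maternal DSS and at 0.0921, 0.282 and 0.201 in control libraries (exact permutation p = 0.5). Adjusted over the 7 ratios, p was 0.875 to 0.9.

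**Figure D3:**
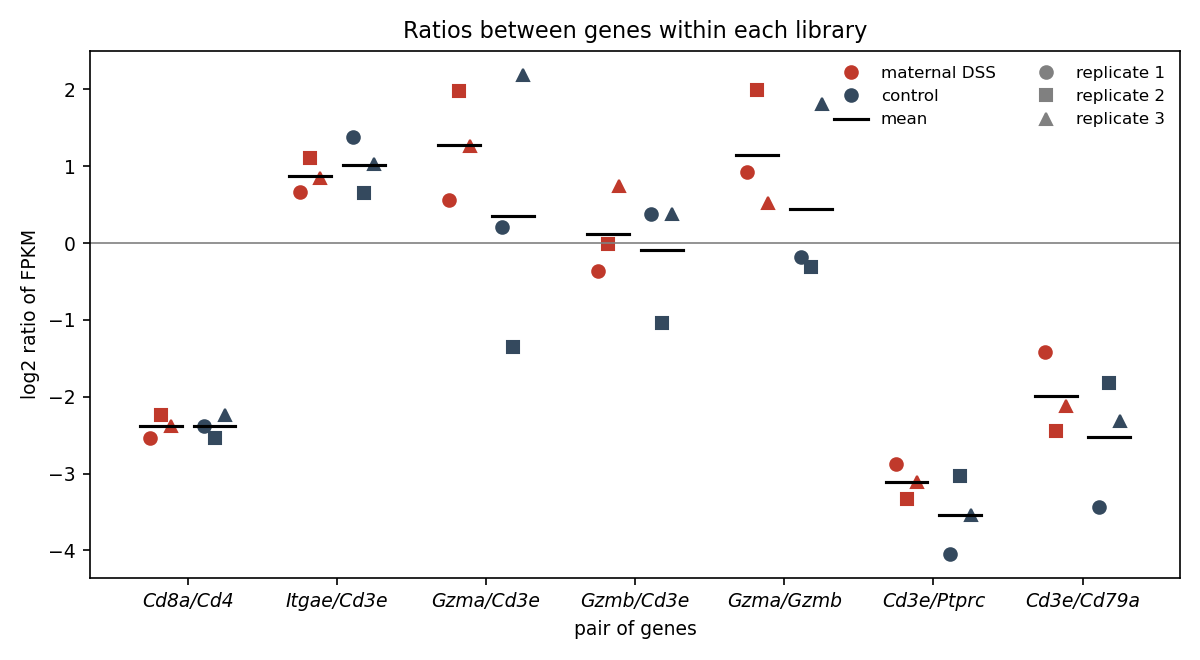
Log2 ratio of FPKM for 7 pairs of genes (horizontal axis) in each library, with maternal DSS in red on the left and control in dark blue on the right of each pair, marker shape giving the replicate and the black line the mean of 3 libraries. The Cd8a to Cd4 ratio keeps within -2.54 to -2.24 in all 6 libraries, while Gzma to Cd3e runs from -1.35 to 2.19.

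Other T cell receptor genes lay on the same side. Of the 10 symbols listed for constant segments and the zeta chain, 7 have a row. The symbols without a row, Trgc1, Trgc2 and Trgc4, name gamma segments also listed as Tcrg-C1, Tcrg-C2 and Tcrg-C4. All 7 had a higher mean in maternal DSS and none passed in limma (lowest adjusted p = 0.70 without a filter). Their median log2 fold change was 0.12, against -0.02 over all 20594 genes. Tcrg-C1, a constant segment of the gamma delta receptor carried by many intraepithelial lymphocytes, had 1.13, 2.01 and 1.37 FPKM in maternal DSS libraries 1 to 3, against 1.05, 0.846 and 1.11 FPKM in controls. It was the 1 gene of the list whose groups did not overlap, by a small margin between maternal DSS 1 and control 3. Over all genes the groups did not overlap in 12.9%, and in 4.7% with maternal DSS higher. Trac, the alpha constant segment, had 0.762, 1.25 and 1.24 FPKM in maternal DSS libraries, against 0.796, 0.856 and 1.10 FPKM in controls. Trbc1 had a ratio of means of 1.15 and Tcrg-C2 one of 1.43, with overlap in both. Segments of one family share reads and their single values are uncertain.

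Genes of T cell signalling and identity were less one-sided. Of 15 signalling genes with a row, 11 had a higher mean in maternal DSS and none passed (median log2 fold change 0.06). The kinase Lck had 1.77, 1.51 and 1.74 FPKM in maternal DSS libraries 1 to 3, against 1.63, 1.42 and 1.66 FPKM in controls, so it did not follow the CD3 genes in maternal DSS 2. Cd7 had 1.05, 1.99 and 1.68 FPKM in maternal DSS and 1.03, 1.17 and 2.17 FPKM in control libraries, with control 3 the highest. Cd2, an adhesion receptor of T and natural killer cells, had 0.445, 0.897 and 0.946 FPKM in maternal DSS, against 0.882, 0.492 and 0.637 FPKM in control libraries, with maternal DSS 1 the lowest. The adaptor gene Lcp2 had 0.785, 1.03 and 0.918 FPKM in maternal DSS, against 0.550, 0.779 and 0.777 FPKM in controls, without overlap, as was the case for Lat, an adaptor gene named after its values were seen (ratio of means 1.57). In sum, 2 of the 15 signalling genes had no overlap, against 12.9% of all genes (4.7% with maternal DSS higher). Of 10 transcription factor genes 4 had a higher mean in maternal DSS and none passed (median -0.03). Zbtb7b stood at 45.7 to 49.6 FPKM in maternal DSS and 45.3 to 49.3 FPKM in control libraries, above every member in all 6 libraries. Bcl11b, which T cells need for their identity, had a ratio of means of 0.849 and Ikzf2 one of 1.12, both with overlap.

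Intraepithelial lymphocyte and cytotoxic lists held few genes at measurable levels. Of 20 genes of the intraepithelial lymphocyte list with a row, 13 had a higher mean in maternal DSS and none passed (median log2 fold change 0.06). Ccl5, a chemokine of memory and cytotoxic T cells, had 1.17, 3.21 and 4.03 FPKM in maternal DSS libraries 1 to 3, against 1.33, 1.36 and 3.08 FPKM in controls, the library order of Gzmb in its highest 3. Ahr and S1pr1, also named from the list, lay on the other side. Ahr, a sensor of dietary compounds that intraepithelial lymphocytes need, had 4.39, 3.38 and 2.85 FPKM in maternal DSS, against 4.06, 4.07 and 3.40 FPKM in control libraries. S1pr1, a receptor by which lymphocytes leave tissues and which vessels also express, had 3.93, 3.53 and 3.55 FPKM in maternal DSS, against 3.42, 4.32 and 4.31 FPKM in control libraries. Both overlapped, with ratios of means of 0.92 for Ahr and 0.914 for S1pr1. Tmigd1, the most abundant gene of this list and an adhesion molecule of epithelial cells, had 84.5, 98.7 and 114 FPKM in maternal DSS, against 69.9, 59.8 and 75.4 FPKM in control libraries, without overlap (ratio of means 1.45), as was Xcl1, a chemokine gene named after its values were seen (1.37). With Cd69, described below, 3 of the 20 genes had no overlap, against 12.9% of all genes (4.7% with maternal DSS higher). Of 10 cytotoxic effector genes with a row, 6 had a higher mean in maternal DSS (median 0.06). Srgn, the proteoglycan that packs granzymes in granules and is made by many leukocytes, had 4.02, 6.90 and 8.21 FPKM in maternal DSS, against 4.31, 4.45 and 5.13 FPKM in controls. Nkg7 had 0.650, 0.844 and 0.655 FPKM in maternal DSS, against 0.661, 0.502 and 0.747 FPKM in controls. Fcer1g had a ratio of means of 1.25 and Serpinb9, an inhibitor of granzyme B, one of 0.988, both with overlap. Gzmm, a further granzyme named after its values were seen, separated with maternal DSS lower. It had 0.140, 0.112 and 0.144 FPKM in maternal DSS, against 0.157, 0.166 and 0.253 FPKM in control libraries. Gzmm was the 1 gene of these 10 without overlap, against 12.9% of all genes.

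Of 13 helper and regulatory genes listed, 5 have a row, and all 5 had a higher mean in maternal DSS with none passing (median log2 fold change 0.15). Tnfrsf18, which encodes the costimulatory receptor GITR of regulatory T cells, had 1.21, 0.959 and 0.881 FPKM in maternal DSS, against 0.730, 0.768 and 0.908 FPKM in control libraries, so that here maternal DSS 1 was the highest. The ratio of means was 1.32 for Il7r, 1.39 for Tnfrsf4 and 1.06 for Il2ra, with overlap in each. Ctla4, an inhibitory receptor of activated and regulatory T cells, named after its values were seen, had 0.173, 0.297 and 0.223 FPKM in maternal DSS libraries 1 to 3, against 0.0807, 0.0767 and 0.0634 FPKM in controls. All 3 maternal DSS libraries, maternal DSS 1 included, lay above all controls, which none of the 9 genes did. Its mean was 3.14 times that of controls (adjusted p = 0.68 in limma without a filter), and its control levels were below those of every member. Cd69, a marker of activated and tissue-resident lymphocytes also named after its values were seen, had 0.331, 0.271 and 0.356 FPKM in maternal DSS, against 0.158, 0.222 and 0.177 FPKM in control libraries, again without overlap (adjusted p = 0.68 in limma without a filter). Over all 20594 genes the groups did not overlap in 12.9%, and in 4.7% with maternal DSS higher.

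Epithelial partners of intraepithelial lymphocytes did not all lie on one side. Of 15 genes, 10 had a higher mean in maternal DSS, against 42.5% of all rows, and none passed (median log2 fold change 0.03). Cdh1, which encodes E-cadherin, the ligand of the Itgae integrin, had 186, 184 and 151 FPKM in maternal DSS libraries 1 to 3, against 204, 187 and 177 FPKM in controls. Btnl6, a butyrophilin-like gene of the family that sustains gamma delta intraepithelial lymphocytes, had 51.8, 53.3 and 45.1 FPKM in maternal DSS, against 45.4, 42.3 and 51.2 FPKM in controls. Epcam had a ratio of means of 1.03, with overlap. Nectin2, an adhesion molecule and ligand of lymphocyte receptors, separated with maternal DSS lower. It had 31.3, 29.3 and 32.6 FPKM in maternal DSS, against 34.1, 33.1 and 35.1 FPKM in control libraries. Nectin2 was the 1 gene of these 15 without overlap, against 12.9% of all genes.

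**Figure D4:**
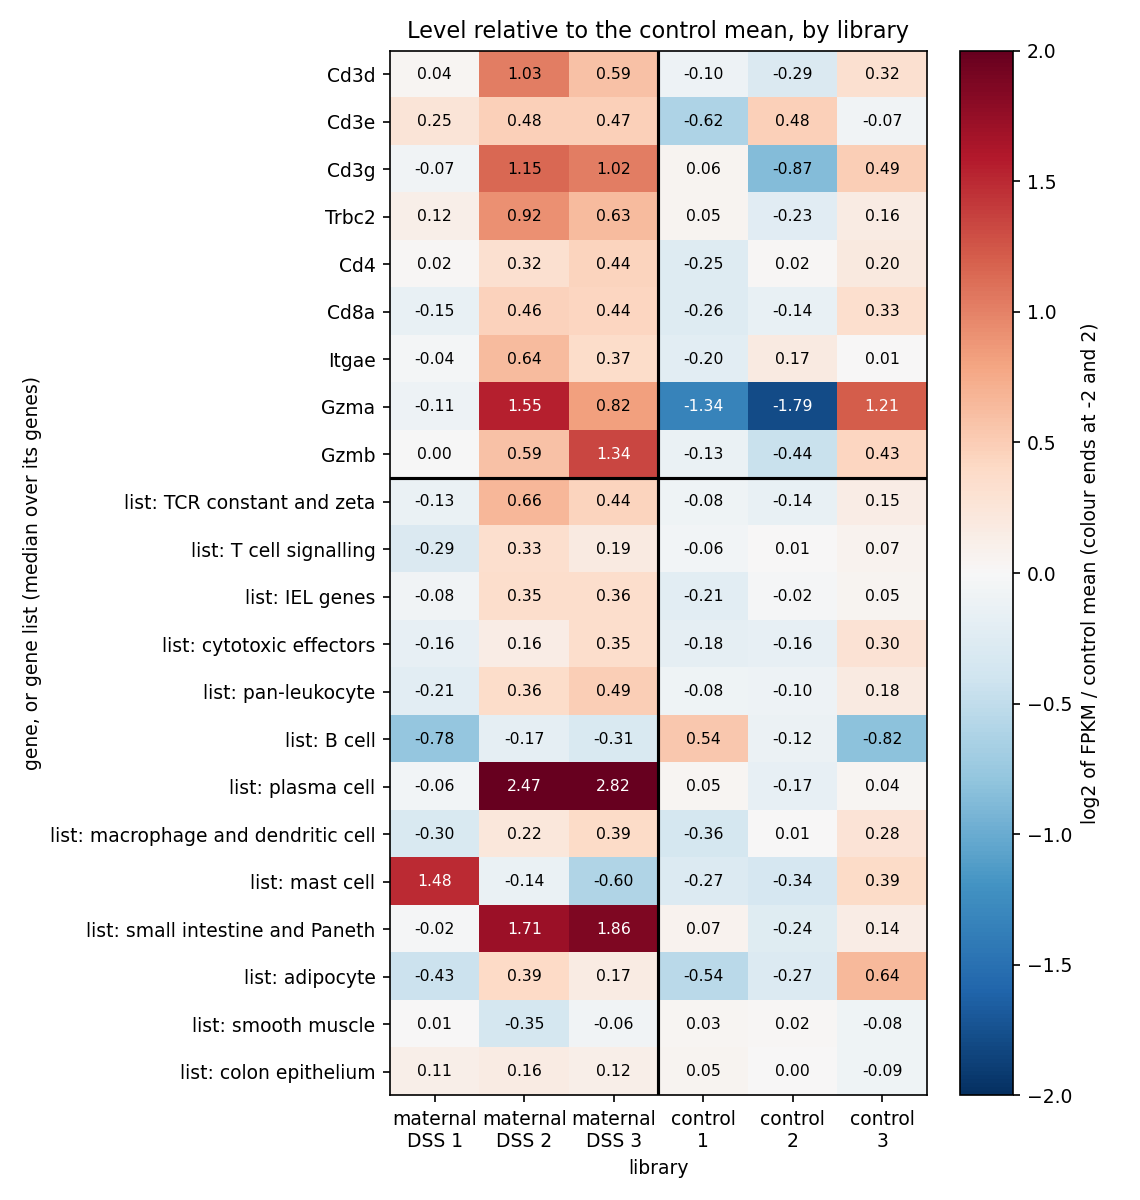
Log2 of the FPKM of each library (columns, maternal DSS left and control right) relative to the control mean, for the 9 genes (upper rows) and, as the median over genes, for lists of related genes and cell type markers (lower rows), with red above and blue below the control mean. The 9 genes are high in maternal DSS 2 and 3 and mostly in control 3. The plasma cell and small intestine lists are high in maternal DSS 2 and 3 alone.

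Markers of other cells moved with the 9 genes in part. The pan-leukocyte list summed to 42.7, 63.4 and 70.1 FPKM in maternal DSS libraries 1 to 3, against 44.9, 45.03 and 54.0 FPKM in controls, with 7 of 8 genes higher on average and none passing, and had the same 3 highest libraries as the CD3 genes Cd3d and Cd3g. The macrophage and dendritic cell list summed to 159, 264 and 338 FPKM in maternal DSS, against 159, 186 and 267 FPKM in controls, with 11 of 15 higher, and the adipocyte list to 158, 223 and 211 FPKM in maternal DSS, against 131, 149 and 234 FPKM in controls, with 6 of 8 higher. All 12 small intestine and Paneth genes with a row and all 8 plasma cell genes were higher on average. The part of these cells or of a small intestinal portion in the values of the T cell genes was not tested. Of the B cell markers 2 of 10 had a higher mean in maternal DSS, and the list summed to 3.76, 7.17 and 5.70 FPKM in maternal DSS, against 7.82, 5.68 and 4.23 FPKM in control libraries. Of the 10 genes of lymphoid follicle stroma 6 had a higher mean in maternal DSS and 4 a lower one (median log2 fold change 0.01). The 1 gene of that list without overlap was Glycam1, with a ratio of means of 3.81. It had 5.47, 6.13 and 3.10 FPKM in maternal DSS, against 1.73, 1.19 and 0.934 FPKM in controls (adjusted p = 0.68 in limma without a filter). Over all genes, 4.7% had no overlap with maternal DSS higher. Smooth muscle genes were lower on average in 8 of 8, at 2972 to 3762 FPKM in maternal DSS and 3568 to 3721 FPKM in controls in sum. No marker list named here held a gene that passed in limma.

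Library profiles were then compared between the 4 members that passed the filter, taken as their mean, and all other genes that did. Likeness was the root mean square difference between centred log2(FPKM + 1) values over the 6 libraries, among 13590 genes. Dcxr, a carbonyl reductase gene, came first at 0.0537, with 14.4, 20.7 and 20.4 FPKM in maternal DSS libraries 1 to 3, against 12.4, 12.0 and 16.8 FPKM in controls. Rplp1, Mtln, Rps21, Rps28, Rpl38, 2200002D01Rik, Gm8186, Rpl34-ps1 and Rps15a followed, up to 0.0797, where a gene with no change at all would stand at 0.280. Of these genes Rplp1, Rps21, Rps28, Rpl38 and Rps15a encode ribosomal proteins. Rplp1 had 1172, 1683 and 1706 FPKM in maternal DSS, against 1101, 1075 and 1465 FPKM in control libraries. Its 3 highest libraries were those of Cd3g and Cd3d. None of these 10 genes passed (adjusted p from 0.62 to 0.64 in limma).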

How the data were processed

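Colon RNA of 6 libraries, 3 per group, was analysed. The authors deposited 1 table of FPKM, with genes in rows and libraries in columns. Libraries were stranded mRNA, per the labels' protocols. The submitters' processing notes list StringTie 2.1.3b, HISAT2 2.1.0, Trimmomatic 0.38 and FastQC 0.11.7, also DESeq2, on mm10. The sources used here do not say which step made the FPKM. FPKM summed to 403673 to 492719 per library. Low values did not fall on whole-read steps (at best 12.3% to 14.1% of values within 0.05 of a step, where 10% is chance), so depth is unknown and counting error is not given.

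Values were taken as log2(FPKM + 1), which understates the change of low genes, for the 13594 genes that reached 1 FPKM in 3 or more libraries. The limma test (version 3.58.1, R 4.3.3, trend on) compared the groups with no covariate. Benjamini-Hochberg adjustment ran over all genes, threshold 0.05. Members under the filter are given from the same fit without a filter. The fit was tested on simulated data. Changes were simulated only in genes with a higher mean level than any member, so that test cannot speak for these genes. Ratios were compared by exact permutation over libraries, and Cd8b1 to Cd8a, planned as an eighth, could not be computed. The alternatives were another pseudocount, filters, median-ratio and TPM scaling, array weights, a replicate block and each library left out. Gene coordinates are from RefSeq GRCm38.p6.

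Named genes were all members, up to 4 genes per list by highest mean FPKM, and the 10 genes of most similar profile. Ctla4, Cd69, Lat, Xcl1 and Gzmm, genes of the lists whose groups did not overlap, were added after their values were seen. So was Ccl25, whose groups overlapped. Genes of the cell type marker lists whose groups did not overlap were not all named. The members and lists were chosen with earlier results of these data known.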

Additional observations from a re-analysis of the deposited data

How the results depend on the processing

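All 111 recomputed fold changes of the 9 genes kept their positive sign. The count of genes with an adjusted p under 0.05, 0 in limma as reported (1064 at an unadjusted p under 0.05), was 4933 with array weights and ranged from 0 to 12 when each library was left out in turn, the 12 without maternal DSS 1. Without a filter, an alternative added after seeing the data, leaving out each library gave 0 to 2. The count of members called was 0 in all settings that could test any except array weights (3, namely Cd3g at 0.72, Trbc2 at 0.68 and Gzma at 1.02 on the log2 scale, with Cd4 at adjusted p = 0.054), for which the cause was not tested. The filter of 5 FPKM left no member to test. Over all genes the median log2 fold change was -0.14 with TPM scaling, against -0.04 as deposited, and over the 4 filtered members it was 0.43 against 0.40. At an unadjusted p under 0.05, 2 of 4 members passed without control 3, beside 1310 of all 13594 genes, and 2 of 4 without maternal DSS 1, beside 3368.

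The differences between groups in log2 ratio, maternal DSS minus control, were recomputed 63 times and 9 changed sign. That of Cd8a to Cd4, 0.0011 as reported, became -0.059 and -0.10 with pseudocounts of 0.1 and 1, and ranged from -0.074 to 0.079 over left-out libraries. That of Itgae to Cd3e, -0.14 as reported, became 0.027 with a pseudocount of 1 and ranged from -0.33 to 0.039. Gzmb to Cd3e, 0.22 as reported, ranged from -0.26 to 0.46. The others kept their sign but moved by over 1.5 times with a single library. Gzma to Cd3e (0.92) was 0.073 without control 2 and 1.84 without control 3. Gzma to Gzmb (0.71) was 0.28 without maternal DSS 2 and 1.39 without control 3. Cd3e to Cd79a (0.54) was 0.080 without control 1 and 0.89 without control 2, and Cd3e to Ptprc (0.43) was 0.18 without control 1 and 0.69 without control 2. The cause was not tested.

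Replicate numbers are shared between the groups but name no common animal or batch, and the deviations of same-numbered libraries from their group means correlated at 0.276 for number 1, -0.384 for number 2 and 0.404 for number 3, so the pairs did not all deviate together. The fit with a replicate block called 0 genes and 0 members, with 1678 genes at an unadjusted p under 0.05. At FPKM near or below 1 and unknown depth, differences of the sizes seen here were not separable from the spread between libraries.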
